A study of Mus musculus with 12 samples.

Results

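Eph receptors and ephrins are cell-surface proteins through which touching cells signal to each other. The 10 genes described here are the receptors Epha2, Epha3, Epha4, Epha7, Ephb2, Ephb3 and Ephb4 and the ligands Efna1, Efna5 and Efnb2. They were found by gene symbol among 23235 entries for mouse fetal liver and 24421 entries for immortalized mouse embryonic fibroblasts (MEFs), and all 10 were present in both. They are 10 of the 22 genes of the family, the other 12 of which were also listed in both. Epha3 was selected on the difference between G2A and WT in both tissues, which went in opposite directions in liver and MEFs, so its difference between genotypes is given as a description with no test. The other 9 were tested within the fits over all genes.

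The study sequenced RNA of E12.5 fetal livers and of immortalized MEFs, each wild-type (WT) or homozygous for the G2A allele of Rpt2 (labelled Rpt2G2A/G2A), none of them treated. As background, Rpt2 is a proteasome ATPase encoded by Psmc1, and G2A replaces the glycine to which a myristoyl lipid anchor is attached. By the labels, each of 3 liver pairs was a WT embryo with a G2A littermate. Whether separate cultures or lines gave the MEF libraries is not stated, so p-values measure the spread between these samples, which may be technical. Liver held 3 WT and 3 G2A libraries and MEFs 3 WT and 2 G2A libraries, since no column matched the third G2A MEF sample, which was not analysed here.

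Liver values are in FPKM (fragments scaled by transcript length and by the mapped total), with column totals of 792987 to 840762 and unknown read depth. MEF values are reads divided by 1 size factor per library, called normalized reads here, and rest on 36415586 to 37695116 gene reads per library. Psmc1 measured 178, 181 and 178 FPKM across WT livers 1 to 3 and 151, 145 and 161 FPKM across G2A livers 1 to 3. In MEFs it had 7393, 8589 and 6485 normalized reads across the WT libraries and 10658 and 10913 across the G2A libraries. Transcript level says nothing of the point mutation itself. The labelled tissues carried their defining transcripts. Afp, a fetal liver protein, reached at least 4523 FPKM in every liver. Col1a1, the fibrillar collagen of fibroblasts, had at least 147435 normalized reads in every MEF library, and Afp at most 3.94. Alb, another liver protein, ranged from 0 to 330 in MEFs. Hepatoblast markers (11 genes) summed to 976, 614 and 32087 normalized reads in WT MEFs 1 to 3 and to 4595 and 7746 in G2A MEFs 1 and 2.

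Some libraries stood apart. On the first principal component of all liver genes tested (37.9% of the variance) the scores were -13.3, -23.3 and -21.1 for WT, 30.6 and 34.9 for G2A livers 1 and 2, and -7.91 for G2A liver 3. On that of the MEFs (73.4% of the variance) WT MEF 3 lay at 72.5, beyond the G2A libraries at 51.5 and 55.2 and far from WT MEF 1 and 2 at -87.2 and -92.0. Counts that rest on these libraries are therefore given with and without them.

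As background, Eph proteins are receptor tyrosine kinases, and their ephrin ligands are fixed to the membrane of a neighbouring cell. Ephrins of the A class hold to the membrane by a lipid (GPI) anchor, while those of the B class span it and have a cytoplasmic tail that can signal back into the ligand-bearing cell. Contact often leads to repulsion or detachment, and the family is known for tissue boundaries, axon guidance and the separation of arteries, marked by Efnb2, from veins, marked by Ephb4.

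In WT liver the most abundant member was Ephb4, the venous receptor, at 25.2 ± 2.65 FPKM (SD, n = 3). Its arterial ligand Efnb2 followed at 12.1 ± 2.42 FPKM, and Efna1, a ligand of Epha2, at 9.98 ± 1.05 FPKM. The libraries of Efnb2 and Efna1 overlapped, while every Ephb4 value lay above every Efnb2 value. Ephb3, Ephb2 and Efna5 were next, at 6.18 ± 1.498, 6.11 ± 0.489 and 5.77 ± 1.34 FPKM, and their libraries overlapped. Epha7 (4.36 ± 1.19 FPKM), Epha2 (3.72 ± 0.404) and Epha4 (3.63 ± 0.454) overlapped as well. Epha3 was the lowest member at 2.69 ± 0.686 FPKM, and its highest WT library (3.15 FPKM) lay just below the lowest of Epha4 (3.34 FPKM). Over the 3 WT livers Ephb4 made up 30.5% to 32.3% of the summed FPKM of the 10 genes.

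WT MEFs had another order. Here levels were set per length as reads scaled by annotated exon length and by the library total of gene reads (RPKM), a scale not to be compared with the liver FPKM. Epha2, a receptor common on epithelial and cultured cells, was the highest member at 29.5 ± 6.46 RPKM (SD, n = 3), and its libraries overlapped those of Ephb4 at 23.6 ± 4.65 RPKM. Efna5, Efna1, Efnb2 and Ephb3 lay between 16.4 and 19.1 RPKM with overlapping libraries. Ephb2 was lower, at 4.42 ± 1.69 RPKM. Epha3 came at 0.853 ± 0.0766 RPKM, followed by Epha4 (0.606 ± 1.02) and Epha7 (0.268 ± 0.441), whose SDs exceed their means because WT MEF 3 was far above the other WT libraries.

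**Figure D1:**
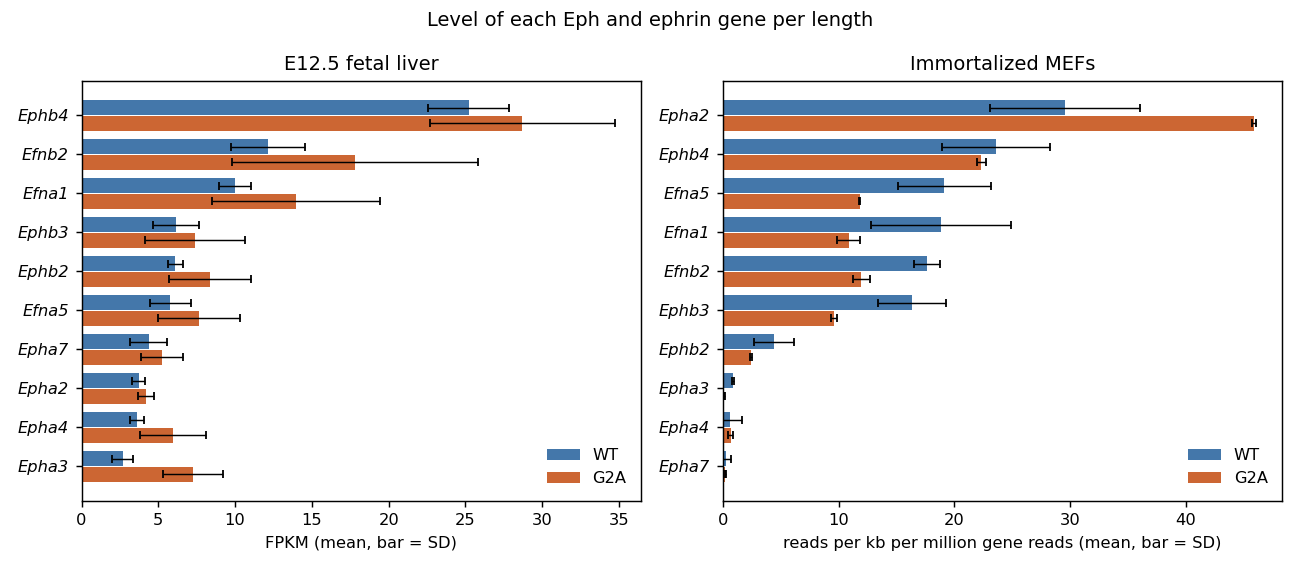
Mean level per length of each member in WT and G2A samples, with SD bars; left in FPKM for liver (n = 3 and 3), right in RPKM for MEFs (n = 3 WT and 2 G2A). Ephb4 led in liver at 25.2 FPKM and Epha2 in MEFs at 29.5 RPKM, while Epha3 was among the lowest members in both.

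The first comparison asked how the members differed between G2A and WT fetal liver. Epha3, a receptor of A-class ephrins, was at 3.01, 1.90 and 3.15 FPKM in WT livers 1 to 3 and at 9.34, 7.02 and 5.48 FPKM in G2A livers 1 to 3. All 3 G2A livers lay above all 3 WT livers, and the lowest G2A value belonged to G2A liver 3. The means were 2.69 ± 0.686 and 7.28 ± 1.94 FPKM (SD, n = 3 each), a ratio of 2.71, and on the log2(FPKM + 1) scale G2A was 1.16 above WT (SE 0.22). Epha3 ranked 10 of the 10 members by mean FPKM in WT liver and 7 in G2A liver. It made up 2.60% to 4.29% of the members' summed FPKM in WT livers and 5.52% to 8.03% in G2A livers. Non-overlap of the groups with G2A higher held for 11.8% of the 12938 genes tested. In bulk tissue, a different number of cells of a type and a different amount of RNA per cell cannot be told apart.

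None of the other 9 members passed limma's test in liver (0 of 9 at an adjusted p under 0.05 over all genes, and 0 at an unadjusted p under 0.05, which 21.4% of all genes had), where 0.0232% of all genes tested were called (0.0155% higher and 0.00773% lower). All 9 had a log2 difference above 0, with a median of 0.32 beside 0.01 over all genes. In all 9 the groups overlapped, and in all 9 G2A liver 3 lay nearer to the WT mean than to the mean of G2A livers 1 and 2 on the log2 scale; with Epha3 that is 9 of 10 members, beside 65.6% of all genes. G2A liver 3 was below every WT liver for Ephb2, Ephb3, Ephb4, Efna1, Efna5 and Efnb2. The share of all genes with this arrangement was not counted, so it cannot be called particular to these members.

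Epha4, a receptor that takes ligands of both classes, measured 4.15, 3.34 and 3.40 FPKM across WT livers 1 to 3 and 7.57, 6.78 and 3.52 FPKM across G2A livers 1 to 3. G2A livers 1 and 2 stood above all WT livers and G2A liver 3 within them. Its log2 difference was 0.54 (SE 0.25, limma adjusted p = 0.269). Ephb2, a receptor of B-class ephrins, measured 6.67, 5.90 and 5.77 FPKM across WT livers 1 to 3 and 9.86, 10.02 and 5.31 FPKM across G2A livers 1 to 3. Here too G2A livers 1 and 2 were the highest and G2A liver 3 the lowest of the 6 (log2 difference 0.36, SE 0.23, limma adjusted p = 0.393).

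The ligands had the same arrangement. Efnb2 measured 14.9, 10.7 and 10.8 FPKM across WT livers 1 to 3 and 21.3, 23.5 and 8.67 FPKM across G2A livers 1 to 3. Efna1 measured 11.1, 9.74 and 9.07 FPKM across WT livers 1 to 3 and 16.4, 17.8 and 7.67 FPKM across G2A livers 1 to 3. Efna5, a ligand of Epha3, measured 7.29, 4.78 and 5.23 FPKM across WT livers 1 to 3 and 8.57, 9.76 and 4.63 FPKM across G2A livers 1 to 3. In each of these ligands G2A livers 1 and 2 exceeded every WT liver and G2A liver 3 fell below every WT liver. Their log2 differences were 0.42 (SE 0.36), 0.37 (SE 0.30) and 0.32 (SE 0.27), with limma adjusted p of 0.523, 0.491 and 0.517. The FPKM ratio of Efnb2 to Ephb4 was 0.528, 0.452 and 0.455 in WT livers and 0.693, 0.704 and 0.396 in G2A livers 1 to 3. Which cells of the bulk liver carried either transcript was not tested.

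Smaller log2 differences were measured for the remaining receptors. Ephb4 measured 28.3, 23.6 and 23.8 FPKM across WT livers 1 to 3 and 30.7, 33.4 and 21.9 FPKM across G2A livers 1 to 3 (0.16, SE 0.16, limma adjusted p = 0.585). Ephb3 measured 7.85, 4.95 and 5.74 FPKM across WT livers 1 to 3 and 9.54, 8.93 and 3.61 FPKM across G2A livers 1 to 3 (0.15, SE 0.34, limma adjusted p = 0.823). Its sign turned when G2A liver 1 or G2A liver 2 was left out. Epha7, a receptor known from repulsion in the nervous system, measured 5.64, 4.15 and 3.29 FPKM across WT livers 1 to 3 and 6.51, 5.35 and 3.78 FPKM across G2A livers 1 to 3 (0.21, SE 0.22, limma adjusted p = 0.597). Epha2 measured 3.74, 4.11 and 3.30 FPKM across WT livers 1 to 3 and 4.32, 4.68 and 3.63 FPKM across G2A livers 1 to 3 (0.14, SE 0.12, limma adjusted p = 0.508). For Epha2, Epha4 and Epha7, G2A liver 3 lay inside the WT range.

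Without G2A liver 3, 5 of the 9 members were higher in G2A liver by limma, where 12.3% of all genes were higher and 12.2% lower. They were Efnb2 (log2 difference 0.85, adjusted p = 0.0176), Epha4 (0.82, adjusted p = 0.0120), Efna1 (0.73, adjusted p = 0.0117), Ephb2 (0.62, adjusted p = 0.0122) and Efna5 (0.60, adjusted p = 0.0484). With library weights estimated by limma 8 of the 9 were higher, all except Epha2, where 26.1% of all genes were higher and 20.7% lower. Epha3 was between 0.99 and 1.41 log2 units higher in G2A liver under every alternative run. These runs reused the libraries on which Epha3 was chosen and are no test of it.

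**Figure D2:**
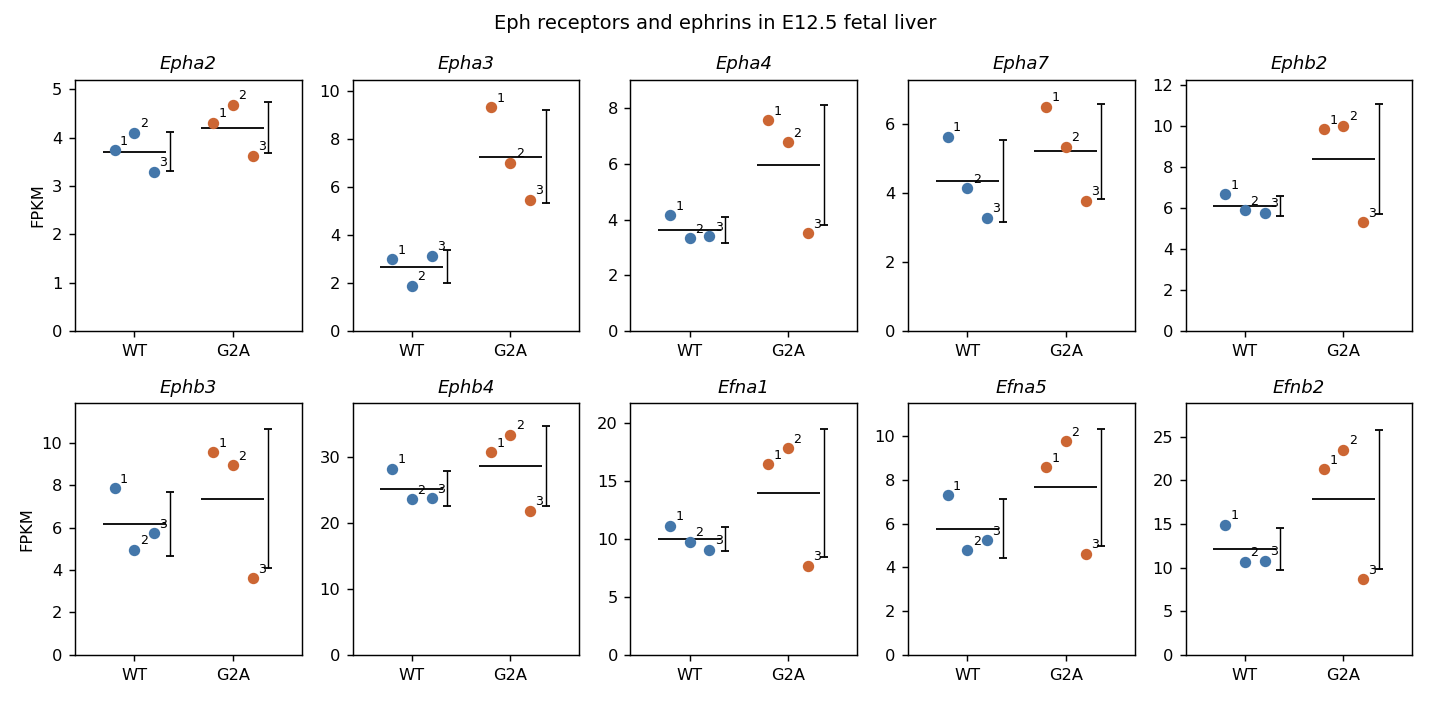
FPKM of each member in each liver library, numbered by sample, with the group mean (line) and SD (bar, n = 3). For Epha3 the 3 G2A livers (5.48 to 9.34 FPKM) lie above the 3 WT livers (1.90 to 3.15 FPKM), and for Ephb2, Ephb3, Ephb4, Efna1, Efna5 and Efnb2 G2A liver 3 is the lowest point.

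Summed markers of cell types lay apart between the genotypes in some lists and overlapped in others. The summed FPKM of 12 mesenchyme and fibroblast markers was 741 to 994 in WT livers and 1414 to 2763 in G2A livers, with the lowest G2A sum in G2A liver 3. That of 12 endothelial markers was 133 to 148 in WT and 152 to 172 in G2A livers. Epithelial markers (10 genes) summed to 152 to 177 in WT and 179 to 483 in G2A livers, and mesothelial markers (8 genes) to 141 to 183 and 175 to 355. For 11 erythroid markers the sums were 2507 to 3505 in WT and 1720 to 3196 in G2A livers, highest among G2A in G2A liver 3. Neural and neural crest markers (12 genes) summed to 47.2 to 81.5 and 23.2 to 52.8, hepatoblast markers (11 genes) to 9152 to 11420 and 8966 to 12838, and macrophage markers (11 genes) to 177 to 221 and 192 to 208. No marker in these lists was at 0 in all livers. The part of these markers in the differences of Eph and ephrin genes was not tested.

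The second comparison asked how the members differed between G2A and WT MEFs. Epha3 was at 198, 170 and 173 normalized reads in WT MEFs 1 to 3 and at 18.7 and 32.4 in G2A MEFs 1 and 2. Both G2A libraries lay far below all WT libraries, and WT MEF 3, which stood apart over all genes, was close to the other WT libraries here. The means were 180 ± 15.2 (SD, n = 3) and 25.5 ± 9.63 (SD, n = 2), a WT to G2A ratio of 7.06, and on the log2(normalized reads + 1) scale G2A was at -2.82 relative to WT (SE 0.37). It was between -3.20 and -2.44 under every alternative run, all on the libraries on which Epha3 was chosen, which is no test of it. Non-overlap with G2A lower held for 18% of the 13241 genes tested. In RPKM, Epha3 ranked 8 of the 10 members in WT MEFs and 10 in G2A MEFs.

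None of the other 9 members passed limma's test in MEFs (0 of 9, where 0% of all genes were called). At an unadjusted p under 0.05, which 14.4% of all genes had, there were 4, by edgeR on recovered reads 0 of 9, and by DESeq2 2 of 9 lower, Ephb3 and Efnb2, where DESeq2 called 4.8% of genes lower and 2.92% higher. The log2 differences were below 0 for 6 and above 0 for 3, with a median of -0.59 beside 0.01 over all genes. The groups did not overlap for 4 of the 9: Ephb3, Efna5 and Efnb2 were lower in both G2A libraries than in every WT library, and Epha2 was higher. Over all genes 18.9% were higher and 18% lower without overlap, 36.8% in all.

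Efnb2 was at 3356, 3085 and 3032 normalized reads in WT MEFs and at 2014 and 2176 in G2A MEFs. The 3 WT libraries were close together, and the log2 difference was -0.59 (SE 0.11, limma adjusted p = 0.269; DESeq2 adjusted p = 8.28e-05). Ephb3, a receptor of B-class ephrins, was at 4099, 3274 and 4098 in WT and at 2176 and 2229 in G2A MEFs. Its log2 difference was -0.79 (SE 0.14, limma adjusted p = 0.269; DESeq2 adjusted p = 0.000189). Efna5 was at 3715, 2599 and 2388 in WT and at 1746 and 1737 in G2A MEFs (-0.71, SE 0.21, limma adjusted p = 0.295). WT MEF 3 lay nearer to WT MEFs 1 and 2 than to the G2A libraries for each of these genes.

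Epha2 was at 5142, 6719 and 3802 normalized reads in WT and at 7851 and 7802 in G2A MEFs, higher in both G2A libraries, with a log2 difference of 0.62 (SE 0.25, limma adjusted p = 0.347). Its share of the members' summed RPKM was 19.0% to 27.9% in WT and 39.2% to 39.9% in G2A MEFs. Efna1, its ligand, was at 1527, 1666 and 749 in WT and at 683 and 769 in G2A MEFs, with WT MEF 3 between the G2A libraries. The log2 difference of Efna1 was -0.77 (SE 0.37, limma adjusted p = 0.407).

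WT MEF 3 also stood far from the other WT libraries for Ephb2, Epha4 and Epha7. Ephb2 was at 2745 and 2566 in WT MEFs 1 and 2, at 1069 in WT MEF 3 and at 1173 and 1085 in G2A MEFs (-0.80, SE 0.44, limma adjusted p = 0.444). Epha4 was at 6.18 and 2.09 in WT MEFs 1 and 2, at 386 in WT MEF 3 and at 120 and 188 in G2A MEFs (2.89, SE 2.12, limma adjusted p = 0.55). The means of Epha4 were 132 normalized reads in WT and 154 in G2A MEFs, a ratio of 1.17, and edgeR and DESeq2 put its log2 difference at 0.23. Epha7 was at 8.24 and 2.09 in WT MEFs 1 and 2, at 263 in WT MEF 3 and at 87.8 and 68.6 in G2A MEFs (2.003, SE 1.91, limma adjusted p = 0.643). The mean of Epha7 was 91.2 normalized reads in WT and 78.2 in G2A MEFs, against the sign of its log2 difference, and edgeR and DESeq2 put it at -0.22. Ephb4 was at 4172, 3503 and 4518 in WT and at 3850 and 3714 in G2A MEFs, within the WT range (-0.10, SE 0.14, limma adjusted p = 0.766).

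Without WT MEF 3, 7 of the 9 members passed limma's test, where 11.9% of all genes were higher and 11.8% lower. Epha4 (log2 difference 5.01, adjusted p = 0.00372) and Epha7 (3.88, adjusted p = 0.0115) were higher in G2A MEFs. Ephb2 (-1.23, adjusted p = 0.00173), Efna1 (-1.14, adjusted p = 0.00354), Efna5 (-0.83, adjusted p = 0.0256), Ephb3 (-0.73, adjusted p = 0.0147) and Efnb2 (-0.62, adjusted p = 0.0110) were lower. Over all genes tested WT MEF 3 lay nearer to the G2A mean than to WT MEFs 1 and 2 in 57.4%, and it did so for 4 of the 10 members: Epha4, Epha7, Ephb2 and Efna1.

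**Figure D3:**
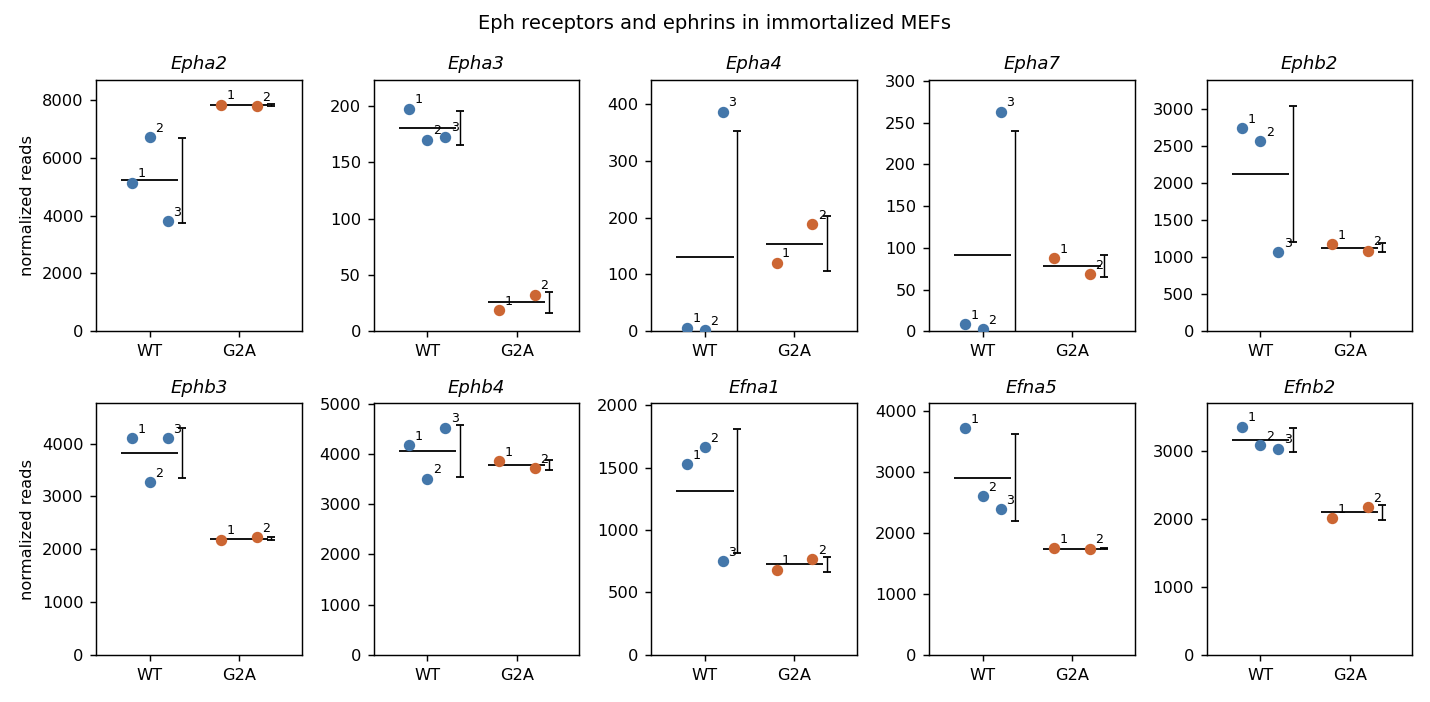
Normalized reads of each member in each MEF library, numbered by sample, with the group mean (line) and SD (bar, n = 3 WT and 2 G2A). Epha3 lies at 170 to 198 in WT and at 18.7 and 32.4 in G2A MEFs; WT MEF 3 lies with or beyond the G2A libraries for Epha4, Epha7, Ephb2 and Efna1.

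The summed level of the 12 mesenchyme and fibroblast markers was 707084 to 1249198 normalized reads in WT and 484218 to 487192 in G2A MEFs. The most abundant genes weigh most in such a sum. Of the 11 of these markers tested, 7 had a log2 difference below 0 and 4 above 0. The 12 neural and neural crest markers summed to 1361 to 3335 in WT and 6582 to 6613 in G2A MEFs, with Sox10 at 0 in all libraries. The 10 epithelial markers summed to 1380 to 2038 and 3664 to 3711, and the 12 endothelial markers to 774 to 2524 and 1569 to 2018, with Tie1, Emcn and Sox17 at 0 throughout. Of those tested, 5 of 7 neural and 5 of 6 epithelial markers had a log2 difference above 0 and the others below 0. The 8 mesothelial markers summed to 4845 and 5637 in WT MEFs 1 and 2, to 114817 in WT MEF 3 and to 62931 and 42078 in G2A MEFs, with Gpm6a at 0. Erythroid markers (12 genes) summed to 3536 to 4947 and 3899 to 4613, with Slc4a1, Gata1, Epb4.2 and Hbb-b1 at 0, macrophage markers (11 genes) to 121 to 573 and 199 to 282, and hepatoblast markers (11 genes) to 614 to 32087 and 4595 to 7746, with Onecut1 at 0. The part of these levels in the differences of the members was not tested.

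The window before the start site is shown for the 4 members whose G2A MEF libraries lay below every WT library. Epha3 is among them because it was chosen for that difference, and 18% of all genes tested in MEFs were lower without overlap. The sequences are RefSeq promoter windows of 250 bases on GRCm38.p6, a later build than the mm9 named for these reads, and read in the direction of transcription: Epha3 at chr16:63864176-63864425 (minus strand), Ephb3 at chr16:21204545-21204794 (plus strand), Efna5 at chr17:62881318-62881567 (minus strand) and Efnb2 at chr8:8661243-8661492 (minus strand). Capitals mark matches, on either strand, to any of the common promoter strings spelled out after the sequences.
Epha3: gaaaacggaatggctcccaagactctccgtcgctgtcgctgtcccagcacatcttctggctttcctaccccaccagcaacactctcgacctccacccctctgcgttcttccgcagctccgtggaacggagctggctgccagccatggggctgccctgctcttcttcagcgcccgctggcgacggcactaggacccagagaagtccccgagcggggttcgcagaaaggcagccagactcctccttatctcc
Ephb3: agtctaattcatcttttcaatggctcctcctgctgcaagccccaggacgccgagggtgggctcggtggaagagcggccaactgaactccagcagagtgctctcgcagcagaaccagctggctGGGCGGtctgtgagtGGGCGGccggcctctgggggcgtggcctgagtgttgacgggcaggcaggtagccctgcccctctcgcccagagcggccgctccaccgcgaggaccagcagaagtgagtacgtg
Efna5: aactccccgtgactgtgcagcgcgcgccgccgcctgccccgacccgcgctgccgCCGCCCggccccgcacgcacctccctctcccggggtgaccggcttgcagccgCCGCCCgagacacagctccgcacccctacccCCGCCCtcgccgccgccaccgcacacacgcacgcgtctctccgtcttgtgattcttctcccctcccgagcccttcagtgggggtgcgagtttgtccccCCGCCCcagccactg
Efnb2: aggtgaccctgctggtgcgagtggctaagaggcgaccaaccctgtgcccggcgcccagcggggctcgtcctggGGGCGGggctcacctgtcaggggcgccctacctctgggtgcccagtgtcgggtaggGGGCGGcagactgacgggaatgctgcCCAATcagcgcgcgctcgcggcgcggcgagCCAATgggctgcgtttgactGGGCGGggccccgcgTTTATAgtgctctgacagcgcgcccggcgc

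The GC box, searched as GGGCGG, was found 2 times in the Ephb3 window, 4 times in that of Efna5 and 3 times in that of Efnb2, and lies in 32.7% of 32851 RefSeq windows of the same length. The CCAAT box, searched by the letters of its name, was found 2 times in the Efnb2 window and lies in 33.8% of all windows. The TATA box, searched as TATAAA, was found 1 time, also in Efnb2, and lies in 12.4% of all windows. The E-box, searched as CACGTG, and the string bound by AP-1 proteins, searched as TGAGTCA, were in none of the 4 windows and lie in 6.02% and 4.46% of all windows. The Epha3 window held no match to any of them. The windows held 16 CG pairs in Epha3 and Ephb3, 32 in Efna5 and 27 in Efnb2, beside a median of 6 over all windows. A match or its absence describes these letters and no factor. All 10 members had an entry.

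In mm9 coordinates of the annotation used for lengths (NCBIM37), these protein-coding genes lie apart. Epha3 spans 63543364 to 63863984 on the minus strand of chromosome 16 (ENSMUSG00000052504.6), and Ephb3 21204828 to 21223378 on the plus strand of the same chromosome (ENSMUSG00000005958.7). Efnb2 spans 8617434 to 8661239 on the minus strand of chromosome 8 (ENSMUSG00000001300.8), and Efna5 62953533 to 63230666 on the minus strand of chromosome 17 (ENSMUSG00000048915.6).

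The third comparison set the G2A effect in liver against that in MEFs, as the difference of the log2 differences, which avoids comparing levels of separately normalized values. For Epha3 this difference was 3.98 log2 units (SE 0.43), given without a test. None of the other 9 members passed (0 of 9 by limma's fits, 5 at an unadjusted p under 0.05), where 2.21% of 10818 genes were called and 23.6% had an unadjusted p under 0.05. The liver effect was above the MEF effect for 6 members and below it for 3, Epha2, Epha4 and Epha7, for the latter genes on limma's MEF values, which the count tools put at 0.23 and -0.22. Efna5 had the smallest p (difference 1.03, SE 0.34, adjusted p = 0.108). Efnb2 (1.01, SE 0.38, adjusted p = 0.165), Ephb3 (0.94, SE 0.37, adjusted p = 0.172), Efna1 (1.14, SE 0.48, adjusted p = 0.178) and Ephb2 (1.15, SE 0.49, adjusted p = 0.203) followed.

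Without WT MEF 3, 5 of the 9 differed between the tissues: Efna1, Efna5 and Ephb2 with the higher liver effect, Epha4 and Epha7 with the lower, where 14.8% and 15.6% of all genes were called in these directions. Without G2A liver 3, 3 differed (Efnb2, Ephb3 and Efna5, all with the higher liver effect, where 5.17% of all genes were called that way and 3.73% the other way). Without both libraries, an alternative chosen after seeing the data, 7 of the 9 differed, 5 with the higher and 2 with the lower liver effect, where 20.1% and 18.1% of all genes were called. With library weights all 9 differed, 6 with the higher and 3 with the lower liver effect, where 29.6% and 27.3% of all genes were called. Ephb4 was near 0 in both tissues, with a difference of 0.26 (SE 0.22, adjusted p = 0.483).

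**Figure D4:**
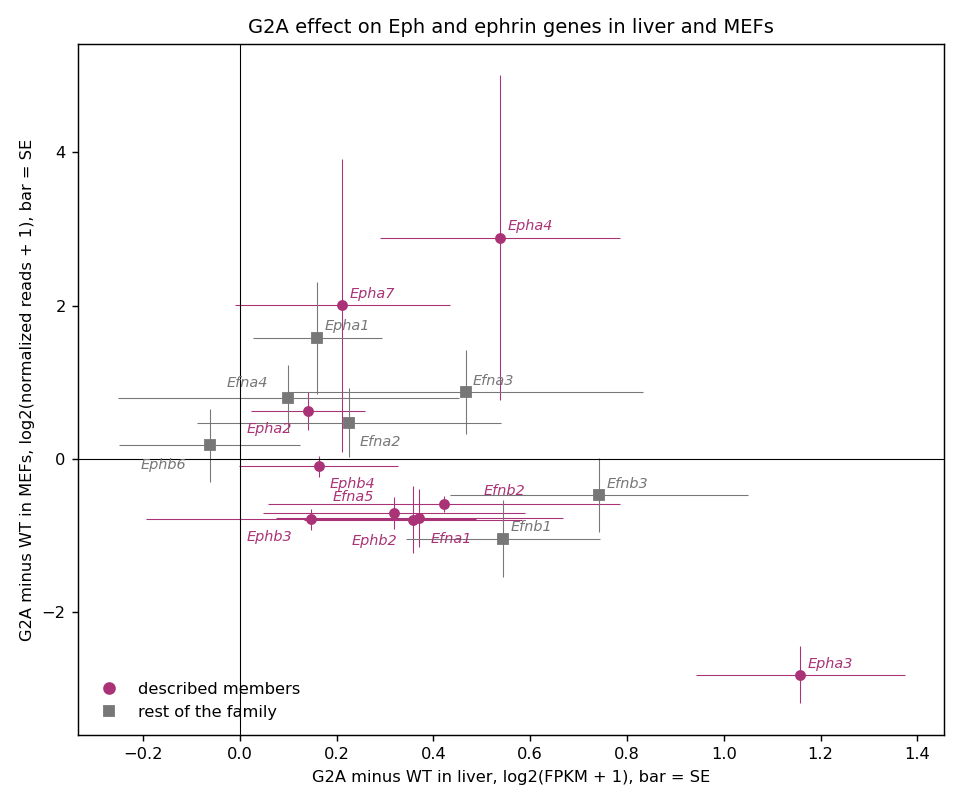
G2A minus WT log2 difference in liver (horizontal axis, log2 of FPKM + 1) against that in MEFs (vertical axis, log2 of normalized reads + 1) for the 17 family genes tested in both, with SE bars; circles are the 10 members and squares other family genes. Epha3 lies at 1.16 and -2.82, and several members lie right of 0 and below 0 with wide bars. The widest bars are the MEF bars of Epha4 (SE 2.12) and Epha7 (SE 1.91).

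The rest of the family was read in the same fits. Of its 12 genes, 7 were tested in each tissue and none passed limma's test in liver (1 at an unadjusted p under 0.05), in MEFs (0) or for the difference between tissues (1). Over all genes 21.4%, 14.4% and 23.6% had such an unadjusted p. The 5 not tested were Epha5, Epha6, Epha8, Epha10 and Ephb1. Epha6, Epha10 and Ephb1 were at 0 in every MEF library, and Epha5 reached at most 2.09 normalized reads.

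Efnb1, a membrane-spanning ligand like Efnb2, measured 17.3, 12.4 and 14.4 FPKM across WT livers 1 to 3 and 23.6, 26.7 and 16.2 FPKM across G2A livers 1 to 3 (log2 difference 0.54, SE 0.20, limma adjusted p = 0.195). In MEFs it was at 1872, 1503 and 603 normalized reads in WT and at 552 and 609 in G2A libraries (-1.04, SE 0.50, limma adjusted p = 0.403), with WT MEF 3 at the level of the G2A libraries. Efnb3, another B-class ligand, measured 8.10, 5.35 and 5.91 FPKM across WT livers 1 to 3 and 14.5, 14.7 and 6.65 FPKM across G2A livers 1 to 3 (0.74, SE 0.31, limma adjusted p = 0.234). For both ligands G2A livers 1 and 2 were the highest of the 6.

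Epha8 measured 0.286, 0.227 and 0.335 FPKM across WT livers 1 to 3 and 2.16, 2.41 and 0.852 FPKM across G2A livers 1 to 3; its groups did not overlap, but it passed 1 FPKM in only 2 libraries and was not tested. Epha1 was at 29.9, 18.8 and 92.1 normalized reads in WT and at 124 and 105 in G2A MEFs, higher in both G2A libraries (log2 difference 1.58, SE 0.73, limma adjusted p = 0.388). In liver Epha1 averaged 3.67 ± 0.403 FPKM over WT and 4.25 ± 0.783 over G2A livers (0.16, SE 0.13, limma adjusted p = 0.51). Ephb6, a family member whose kinase domain is inactive, had log2 differences of -0.06 in liver and 0.18 in MEFs (limma adjusted p = 0.868 and 0.877).

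Efna1, Efna3 and Efna4 lie beside each other on the minus strand of chromosome 3, within 66.3 kb (89075655 to 89141950, mm9). In MEFs the neighbours did not follow Efna1. Efna3 was at 69.0, 68.9 and 193 normalized reads in WT and at 197 and 162 in G2A libraries, and Efna4 at 164, 234 and 435 in WT and at 423 and 465 in G2A libraries. WT MEF 3 had the low Efna1 and the high Efna3 and Efna4 of the G2A libraries. The log2 differences were 0.87 (SE 0.55, limma adjusted p = 0.49) for Efna3 and 0.79 (SE 0.44, limma adjusted p = 0.446) for Efna4. Efna2, a ligand on another chromosome, was at 211, 187 and 476 in WT and at 332 and 412 in G2A MEFs (0.48, SE 0.46, limma adjusted p = 0.645). Without G2A liver 3, Efnb3 (1.09, limma adjusted p = 0.013), Efnb1 (0.74, adjusted p = 0.0185) and Efna2 (0.59, adjusted p = 0.0285) were higher in G2A liver. Of all genes, 12.3% were higher and 12.2% lower in that fit. Without WT MEF 3, Epha1 (2.22, limma adjusted p = 0.0114), Efna3 (1.36, adjusted p = 0.0152), Efna4 (1.18, adjusted p = 0.0199) and Efna2 (0.89, adjusted p = 0.0289) were higher and Efnb1 (-1.53, adjusted p = 0.00281) lower in G2A MEFs. There, 11.9% of all genes were higher and 11.8% lower. With all livers, Efna2, Efna3 and Efna4 had log2 differences of 0.23, 0.47 and 0.10 (limma adjusted p = 0.696, 0.485 and 0.887).

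Proteins that act with Eph receptors were taken from 2 lists. Of 28 adaptors, exchange factors and effectors none passed limma's test in liver (1 at an unadjusted p under 0.05, beside 21.4% of all genes) or in MEFs (3, beside 14.4%), and the medians of the log2 differences were 0.10 and -0.07 beside 0.01 over all genes in each. Rock1, a kinase that contracts the cytoskeleton, was at 15.7 ± 1.21 and 18.8 ± 1.10 FPKM in WT and G2A liver (0.25, limma adjusted p = 0.162). Tiam1, a Rac exchange factor, was at 5.93 ± 0.409 and 8.23 ± 1.87 FPKM (0.39, limma adjusted p = 0.234). In MEFs the adaptor Grb2 was at 3071 ± 435 and 4252 ± 196 normalized reads (0.48, limma adjusted p = 0.298) and the kinase Pak1 at 1499 ± 189 and 1955 ± 86.0 (0.39, limma adjusted p = 0.336). For the difference between tissues none of the 28 passed (6 at an unadjusted p under 0.05, beside 23.6% of all genes); the smallest p were those of Rock1 (0.54, adjusted p = 0.0813) and the Src-family kinase Yes1 (0.51, adjusted p = 0.109).

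Of 14 proteases, phosphatases and adaptors of receptor turnover and reverse signalling, 12 were tested in each tissue and none passed limma's test in liver (1 at an unadjusted p under 0.05, beside 21.4% of all genes) or MEFs (2, beside 14.4%). Acp1, a low molecular weight tyrosine phosphatase that acts on Eph receptors, averaged 110 ± 4.54 FPKM over WT and 83.7 ± 11.3 over G2A livers (SD, n = 3 each), lower in all 3 G2A livers (log2 difference -0.39, SE 0.10, limma adjusted p = 0.126). In MEFs it was at 4008 ± 214 normalized reads (SD, n = 3) in WT and 5161 ± 223 (n = 2) in G2A, higher in both (0.37, SE 0.10, limma adjusted p = 0.285). Its difference between tissues passed (-0.76, SE 0.14, adjusted p = 0.035), the only one of 11 in the list, where 0.869% of all genes were called in that direction. The call was lost without any one of WT liver 1, 2 or 3, G2A liver 1 or 2, WT MEF 1, or G2A MEF 1 or 2, without a filter and without a variance trend, with adjusted p from 2.11e-05 to 0.559 over the alternatives. Ptpn1, a phosphatase of receptor kinases, was at 17.9 ± 0.0157 and 16.5 ± 0.428 FPKM in liver (-0.11, limma adjusted p = 0.317). Cbl, a ubiquitin ligase that sends receptors to degradation, was at 878 ± 22.04 and 571 ± 203 normalized reads in MEFs (-0.67, limma adjusted p = 0.33).

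The genes most like Epha3 were ranked by Pearson correlation over all 11 libraries, on log2 values centred within each tissue, among 10817 genes tested in both. The first 5 were Adamts12, a secreted metalloprotease (r = 0.98), Tgfb2, a growth factor ligand (0.97), 4931406P16Rik (0.96), Vps4b, an ATPase of membrane scission (0.96), and Pde8a, a cyclic nucleotide phosphodiesterase (0.96). Adamts12 was at 1.22 and 2.30 FPKM in WT and G2A liver and at 859 and 293 normalized reads in WT and G2A MEFs. Tgfb2 was at 10.6 and 17.9 FPKM and at 3163 and 822 normalized reads. These genes were picked for their likeness, the libraries share the 2 genotype contrasts, and the values carry no test. Among the members the correlation with Epha3 was highest for Efna5 (0.75, rank 774) and lowest for Epha2 (-0.56, rank 8735).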

How the data were processed

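Reads of fetal liver and MEF RNA, cut to 50 bp, were mapped by the authors with TopHat 2.1.1 on mm9 (per the labels' protocols). Cufflinks 2.2.1 and a second build, mm10, appear in the submitters' processing notes. Liver values were deposited without a unit and were read as FPKM from the named tool and the values. The MEF values deposited by the authors are a normalized signal per gene: all values became whole reads within 0.01 after rescaling by 1 size factor per library (0.958 to 1.06). For annotation, counting tool and strand, the sources used here name nothing, so overlapping genes are uncertain. Columns of 11 libraries were matched to samples by tissue, genotype and number, and 0 columns were left unmapped.

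Genotype was tested by limma 3.58.1 (R 4.3.3) within each tissue on log2(value + 1) (variance trend, Benjamini-Hochberg over all genes, threshold 0.05), over genes with at least 1 FPKM in 3 livers or 10 normalized reads in 2 MEF libraries. All 10 members passed both filters. For the comparison of tissues, the difference of both effects was divided by its SE, with degrees of freedom after Satterthwaite. edgeR 4.0.16 and DESeq2 1.42.0 were run on the recovered MEF reads. The fits were tested on simulated data. MEF levels per length used exon lengths of NCBIM37. Named genes were Psmc1, the family, up to 4 pathway genes past the test or the 2 with the smallest p per list, markers, and the 5 genes most correlated with Epha3. The members, lists and alternatives were chosen with earlier results of these data known. The alternatives were another pseudocount (0.1), no filter or a stricter one (5 FPKM, 50 normalized reads), median-ratio or quantile scaling, no variance trend, library weights, a replicate block, each library left out, and no small RNA genes in liver; leaving out G2A liver 3 and WT MEF 3 together was chosen after seeing the data. Since sample numbers are not said to mark pairs, the main fits had no block. Single values of some marker genes are not reported here.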

Additional observations from a re-analysis of the deposited data

Results flagged for a closer look

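Epha3 had a liver effect 3.98 log2 units above its MEF effect: every G2A liver lay above every WT liver and every G2A MEF library below every WT MEF library. The gene was chosen for this pattern, and the difference was not tested.

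Acp1 differed between the tissues (-0.76 log2 units, adjusted p = 0.035), lower in all 3 G2A livers and higher in both G2A MEF libraries. In the fits without 1 library in which the call was lost its values were -0.66 to -0.80. It held without G2A liver 3, WT MEF 2 or WT MEF 3.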

How the results depend on the processing

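The counts are of the 9 tested members past the threshold, 0 of 9 in liver, in MEFs and for the difference between tissues. Another pseudocount, no filter, a stricter filter, median-ratio or quantile scaling and no variance trend left each at 0. Leaving out 1 library gave 0 to 5 in liver, 0 to 7 in MEFs and 0 to 5 for the difference; counts above 0 came without G2A liver 3 or without WT MEF 3, and leaving out both gave 7 for the difference (20.1% of all genes higher, 18.1% lower). Library weights gave 8, 8 and 9, with 3376 genes higher and 2681 lower in liver 3149 and 2975 in MEFs, and 3200 and 2951 for the difference, against 2 and 1, 0 and 0, and 145 and 94 as fitted. DESeq2 gave 2 in MEFs (383 genes higher, 630 lower) and edgeR 0.

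Blocking on the sample number (replicate block) gave counts of 0 in liver, 8 in MEFs (14.3% of all genes higher, 13.7% lower) and 6 for the difference (16.6% higher, 17.5% lower); the MEF block drops WT MEF 3, the only library numbered 3. After each genotype's mean was subtracted per gene, the deviations of same-numbered livers correlated at 0.18, -0.10 and 0.10 and those of MEFs at 0.13 and -0.03. The deviations of the 2 G2A MEF libraries are mirror images, so each WT MEF has opposite correlations with them. With so few libraries per group, these values cannot decide whether the numbers mark pairs. The numbers were not taken as pairs because the labels do not say that they are.

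Some signs turned. Over the libraries left out, Ephb3 in liver ranged from -0.065 to 0.53 (-0.022 without G2A liver 2), Efna4 in liver from -0.10 to 0.50 (-0.095 without G2A liver 2), Ephb6 in liver from -0.21 to 0.11 (0.018 without WT liver 1), Ephb6 in MEFs from -0.32 to 0.68, Ephb6 for the difference from -0.75 to 0.26, and Efna2 for the difference from -0.67 to 0.12 (0.00426 without WT MEF 2). With library weights Ephb6 was at 0.23 in liver, -0.22 in MEFs and 0.44 for the difference, which was 0.023 without G2A liver 3 and WT MEF 3. Epha7 in MEFs turned from 2.003 to -0.22 by edgeR and DESeq2, and Epha4 fell from 2.89 to 0.23. For these genes the limma fit compared means of log2 values. The ratio of mean normalized reads, G2A over WT, was 0.858 for Epha7 and 1.17 for Epha4, on the side of the count tools. The cause of the other turns was not tested. With 1 G2A MEF library left, it was assumed to vary like the WT libraries. Liver depth is unknown, which limits what can be said of members at a few FPKM.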
